A study of Mus musculus with 12 samples.

Results

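The 42 genes described here are type I interferon-stimulated genes: antiviral effectors and members of the IFIT, OAS, MX and PARP families, taken by gene symbol from a list of such genes after the gene identifiers of the count table had been matched to mouse symbols with their version dropped. All 42 symbols were found once among the 47937 genes listed, and all 42 passed the filter on low counts, as did 11760 genes in all. RNA-seq was performed on bone marrow-derived macrophages of C57BL/6 mice. Bone marrow cells had been grown for 7 days with CSF-1 at 20 ng/ml, a growth factor that drives macrophage formation, and every group kept CSF-1 afterwards. The 4 groups of 3 libraries each were resting macrophages (M0), macrophages stimulated with 50 ng/ml IFNγ and 20 ng/ml LPS (IFNγ + LPS), and each of these treated with DGAT1i, the compound T863 at 50 µM, which inhibits the triglyceride-forming enzyme DGAT1. The descriptions of M0 with DGAT1i replicates 2 and 3 name T864 and T865 in place of T863, and their titles say DGAT1i as for replicate 1, so the agent in these libraries is uncertain. The titles of 9 libraries give 18 h, and those of the 3 M0 libraries give no time. No type I interferon was among the agents, and the study asked how blocking triglyceride synthesis changes the activated state of these cells. Nothing in the labels says that the 3 libraries of a group came from separate mice or cultures, so the p-values measure the spread between these libraries.

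Type I interferons signal through the receptor pair IFNAR1 and IFNAR2 and the kinases JAK1 and TYK2, which activate ISGF3, a transcription factor complex that contains STAT2 and IRF9. This complex binds the interferon-stimulated response element (ISRE) in the promoters of antiviral genes, whereas IFNγ acts mainly through the gamma-activated site (GAS). LPS is known to make macrophages secrete interferon-β, so IFNγ + LPS can reach the same genes by both routes.

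Each library held between 4996014 and 6621671 reads on genes. A level is given in CPM, the read count scaled to the effective library size from TMM (trimmed mean of M values) scaling, where 1 CPM stood for 4.28 to 7.58 reads. All 8 macrophage markers examined, among them Csf1r, Adgre1 and Cd68, were detected in every group. They summed to 13097 to 14356 CPM in M0, 16132 to 18168 CPM in M0 with DGAT1i, 8283 to 8925 CPM in IFNγ + LPS and 7874 to 8829 CPM in IFNγ + LPS with DGAT1i. DGAT1i raised 1 (Cd68) and lowered 3 of them (Adgre1, Fcgr1 and Itgam) in IFNγ + LPS, where 13.5% of all genes tested were called higher and 16.3% lower. In M0 it raised 3 and lowered 1, beside 11.0% and 13.4% of all genes. The 8 markers of neutrophils and their precursors summed to 9.90 to 14.4 CPM in IFNγ + LPS and to 44.4 to 53.9 CPM in IFNγ + LPS with DGAT1i, with 22.2 to 28.7 CPM in M0 and 16.3 to 20.5 CPM in M0 with DGAT1i. Of these, Ngp, Ltf and S100a8 were called higher with DGAT1i in IFNγ + LPS, and the defining marker Ly6g was at 0 in all 12 libraries. Markers of lymphocytes summed to at most 0.726 CPM in any library, those of mast cells and basophils were at 0, and those of fibroblasts summed to at most 0.233 CPM. Of the dendritic cell markers Siglech and Ccr9 gave no more than 0.266 CPM in any library, while Xcr1 was at 6.32, 5.04 and 5.25 CPM in IFNγ + LPS and at 1.03, 0.417 and 1.17 CPM in IFNγ + LPS with DGAT1i. The 6 dendritic cell markers summed to 60.2 to 72.5 CPM and 58.1 to 63.2 CPM in these groups, mostly from Tcf4, which was not called between them. The part of these marker changes in the results below was not tested, and in bulk RNA fewer cells of a type and less RNA per cell cannot be told apart.

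The promoters of the members were read from RefSeq windows of 300 bases on GRCm38.p6, running from 250 bases before each gene's start to 50 bases after it. By symbol, 33 members were matched to 40 windows, and Ifi27, Mx1, Mx2, Oas2, Parp14, Parp9, Rtp4, Tor3a and Usp18 were not matched. The ISRE was searched as GAAANNGAAA and the GAS as TTCNNNGAA, each on both strands. An ISRE match was present in 17 of the 40 windows (42.5%) and in 3.44% of all 32850 windows. A GAS match was present in 7 of the 40 windows (17.5%) and in 8.30% of all windows. Of the 27 ISRE matches 23 lay wholly before the start, where 250 of the 300 bases of each window lie. A GAS match overlapped an ISRE match in Ifitm3 and Bst2. A match describes these letters and is not a measured binding site. The 150 bases before the start are shown for 4 members because, among the matched members of their family that hold an ISRE match, they had the largest response to IFNγ + LPS, and because they reach from no detectable change with DGAT1i (Isg15) to the largest decrease (Ifit1bl1). None of the 3 members that rose with DGAT1i is among them. Each is written 5′ to 3′ on the gene's own strand, here the minus strand, with ISRE matches in capitals.
Isg15 at chr4:156200819-156200968: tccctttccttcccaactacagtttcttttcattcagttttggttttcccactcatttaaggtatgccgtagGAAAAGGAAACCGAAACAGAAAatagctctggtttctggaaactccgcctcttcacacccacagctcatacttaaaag
Rsad2 at chr12:26456453-26456602: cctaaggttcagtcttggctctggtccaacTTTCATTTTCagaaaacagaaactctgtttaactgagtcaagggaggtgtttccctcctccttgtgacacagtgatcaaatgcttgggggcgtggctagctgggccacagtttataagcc
Oas3 at chr5:120777660-120777809: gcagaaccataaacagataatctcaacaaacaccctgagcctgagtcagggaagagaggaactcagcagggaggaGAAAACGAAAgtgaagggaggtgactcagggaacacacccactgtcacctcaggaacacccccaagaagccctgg
Ifit1bl1 at chr19:34601969-34602118: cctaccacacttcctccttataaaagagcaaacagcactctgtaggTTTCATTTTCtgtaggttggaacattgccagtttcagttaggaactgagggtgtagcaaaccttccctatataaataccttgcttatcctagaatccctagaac
In Isg15 the capitals are 3 matches that overlap in steps of 6 bases, while Rsad2, Oas3 and Ifit1bl1 have 1 match each, in Rsad2 and Ifit1bl1 on the opposite strand.

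**Figure D1:**
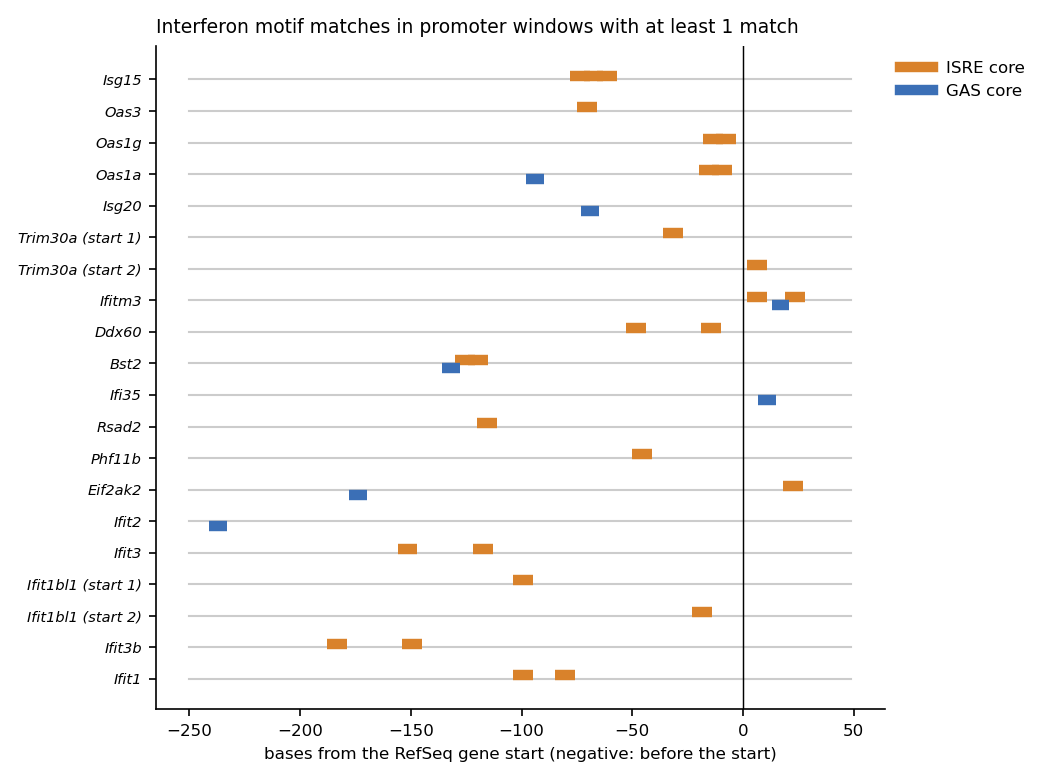
Positions of ISRE (orange) and GAS (blue) matches in the RefSeq promoter windows of members that hold at least 1 match, in bases from the gene start on the x axis, with 1 line per window. The 27 ISRE matches begin between 188 bases before and 19 bases after the start, with a median of 66 bases before it.

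In resting macrophages the members differed widely in level. Ifitm3, a membrane protein that blocks entry of enveloped viruses, was highest per length at 242 ± 35.7 CPM per kb (SD, n = 3). Bst2, which tethers budding virions to the cell surface, followed at 109 ± 1.79 CPM per kb and Lgals3bp at 82.2 ± 2.15 CPM per kb, and the ranges of the 3 genes did not overlap. Ifit1bl1 was lowest, with 4 reads over the 3 M0 libraries and none over the 3 libraries of M0 with DGAT1i. Replicate error was small, with a median coefficient of variation over the members of 7.69% in M0 and 4.69% in IFNγ + LPS.

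IFNγ + LPS raised 41 of the 42 members and lowered 1, Ifi27. Of all genes tested, 37.1% were called higher and 36.2% lower. The median log2 fold change was 4.09 over the members and 0.01 over all genes tested, and each of the 41 members rose by more than 2-fold. With scaling by library size alone the median of all genes moved to -0.46 and that of the members to 3.62, and 2340 genes were called higher and 7002 lower in place of 4361 and 4254, while the same 41 members were higher. The reads assigned to members grew from 0.252% ± 0.008 of a library in M0 to 3.33% ± 0.09 in IFNγ + LPS (SD, n = 3). Per length, Ifit2 became the most abundant member at 1633 ± 76.0 CPM per kb, followed by Ifitm3 at 1400.4 ± 70.5, Rsad2 at 1139 ± 87.0 and Isg15 at 1070.2 ± 33.9 CPM per kb. The library ranges of Rsad2 and Isg15 overlapped, and those of the other neighbours in this order did not. With DGAT1i present, IFNγ + LPS again raised 41 members and lowered Ifi27, beside 35.3% of all genes called higher and 35.3% called lower, with a median of 3.86 over the members. The order of the 5 most abundant members, Ifit2, Ifitm3, Rsad2, Isg15 and Bst2, was the same with DGAT1i, again with overlapping ranges of Rsad2 and Isg15.

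**Figure D2:**
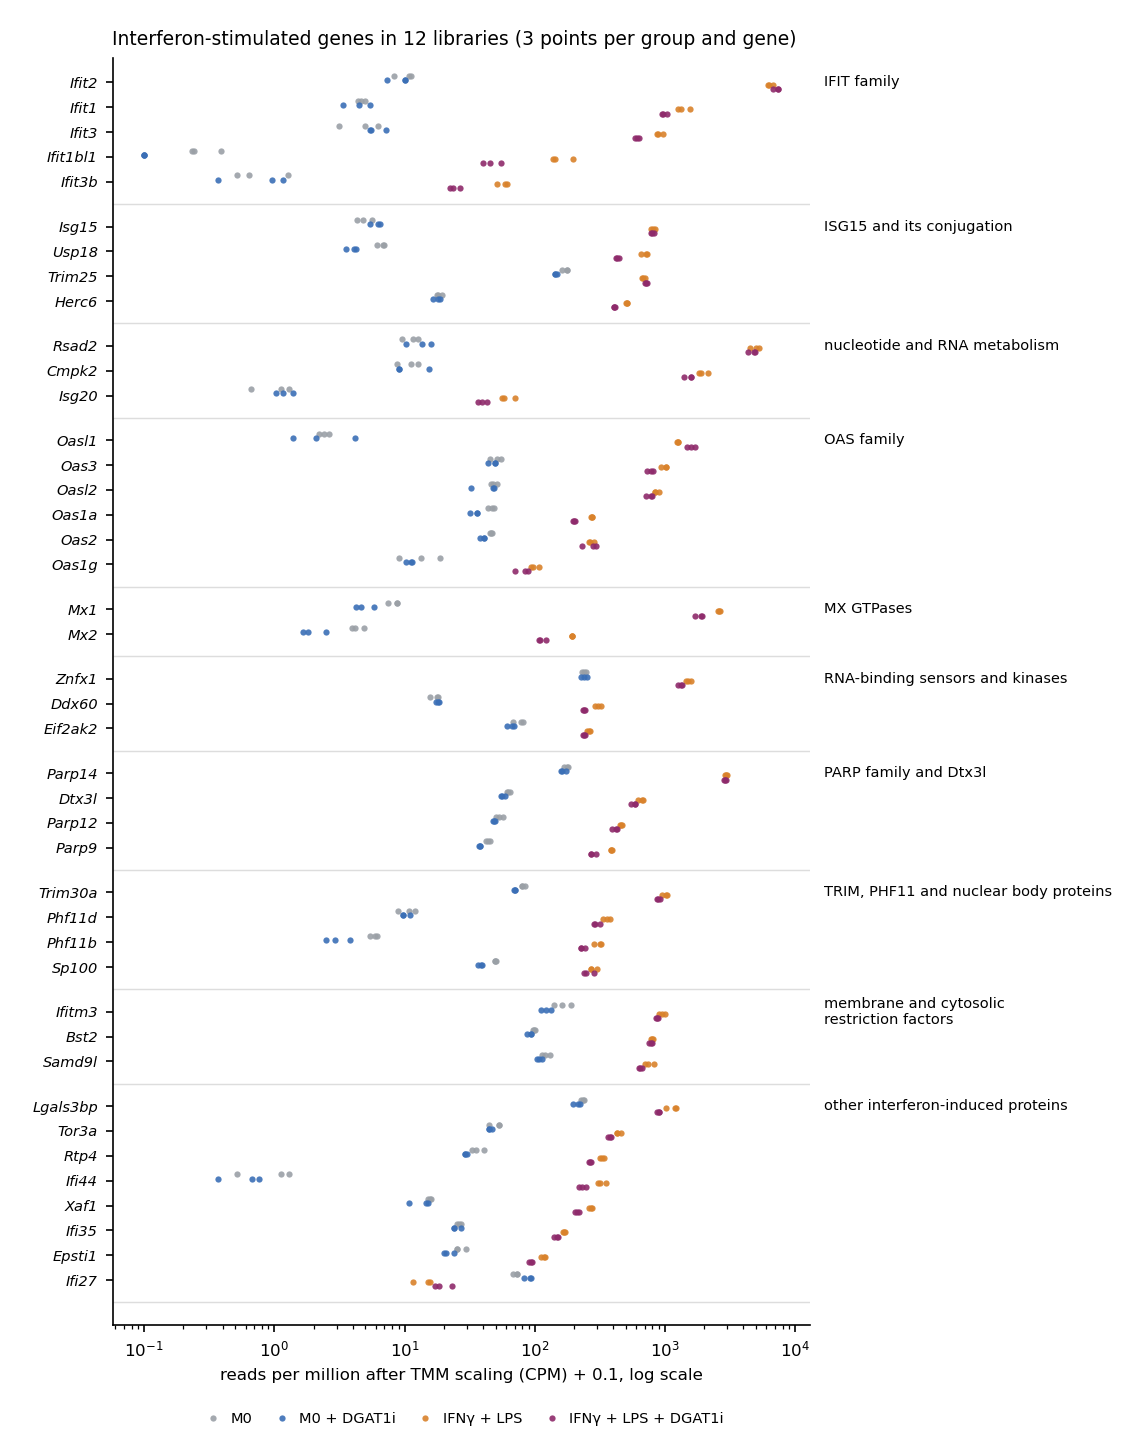
CPM (plus 0.1, log scale) of the 42 members in each of the 12 libraries, grouped by role, with 1 point per library. The points of IFNγ + LPS (orange) and of IFNγ + LPS with DGAT1i (purple) lie to the right of both resting groups for every gene except Ifi27.

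DGAT1i in IFNγ + LPS lowered 28 of the 42 members and raised 3, while 11 were not called. Beside this, 16.3% of all genes tested were called lower and 13.5% higher. The decreases were mostly modest: the median log2 fold change was -0.28 over the members against -0.01 over all genes, and 2 members, Ifit1bl1 and Ifit3b, fell by more than 2-fold. The 3 libraries with DGAT1i lay below all 3 without it for 32 members and above them for 4, compared with 21.6% and 18.1% of all genes. The 3 members that rose were Ifi27, Oasl1 and Ifit2. The 11 that were not called were Isg15, Trim25, Rsad2, Oas1g, Oas2, Oasl2, Eif2ak2, Parp14, Sp100, Bst2 and Ifitm3, which include 4 of the 5 most abundant members. The summed level of the members was 38872 ± 1492 CPM in IFNγ + LPS and 35267 ± 1310 CPM with DGAT1i (SD, n = 3).

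In M0, DGAT1i lowered 13 members and raised 1, Ifi27, and 28 were not called. Over all genes tested, 13.4% were called lower and 11.0% higher. With library size alone 21 members were called lower, beside 17.8% of all genes called lower and 7.53% higher, and the median of all genes moved to -0.05. DESeq2 called 741 genes higher in place of 1298. The median log2 fold change was -0.15 over the members and below 0.01 in size over all genes. The difference between both DGAT1i responses was called for 8 members, 2 of them higher (Trim25 and Sp100) and 6 lower (Ifit3, Ddx60, Oas3, Parp9, Lgals3bp and Znfx1), where lower means a more negative effect of DGAT1i in IFNγ + LPS than in M0. Over all genes 8.66% were called higher and 9.80% lower for this difference, and its median was -0.01 both over the members and over all genes.

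**Figure D3:**
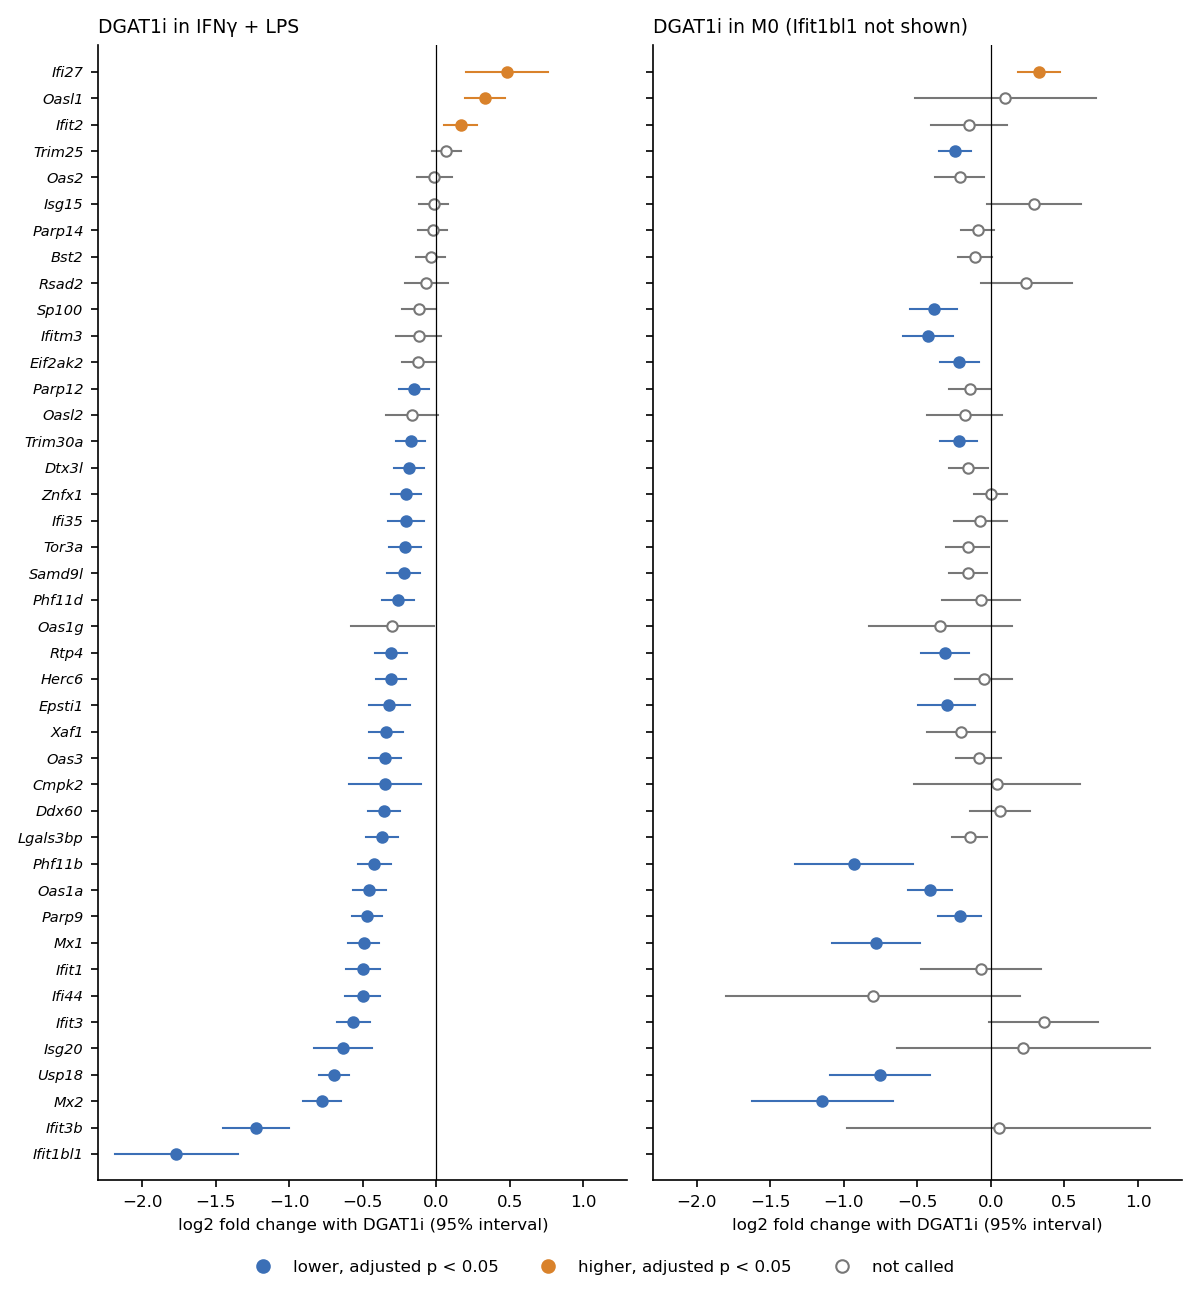
Log2 fold change with DGAT1i in IFNγ + LPS (left) and in M0 (right) for each member, with its 95% interval on the x axis, ordered by the effect in IFNγ + LPS. Ifit1bl1 is not shown on the right because it had no reads in M0 with DGAT1i. Filled points are the calls at an adjusted p under 0.05 (28 lower and 3 higher on the left, 13 lower and 1 higher on the right), and open points were not called.

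The IFIT genes encode tetratricopeptide repeat proteins that bind foreign RNA, and IFIT1 recognises viral RNA caps that lack 2′-O-methylation. With DGAT1i in IFNγ + LPS 4 of the 5 IFIT members fell and 1 rose. They are neighbours on GRCm38 chromosome 19, from Ifit2 at chr19:34550694-34576419 to Ifit1 at chr19:34640871-34650009. Ifit1bl1 at chr19:34592891-34601956 had the largest decrease by DGAT1i of all members in IFNγ + LPS. It was measured at 138, 197 and 142 CPM in IFNγ + LPS and at 39.9, 55.3 and 45.3 CPM with DGAT1i. The highest library with DGAT1i was well below the lowest without it, and the log2 fold change was -1.77 (SE 0.18, adjusted p = 0.000194) by the quasi-likelihood test of edgeR after Benjamini-Hochberg adjustment over all genes tested, the test behind every call (adjusted p under 0.05) and every adjusted p given here. Against the 4 reads in M0, its reads in IFNγ + LPS were 866-fold higher (95% counting interval 338 to 3180), and with DGAT1i, taking 3 reads in the group as the floor for the absent reads, they were at least 346-fold higher.

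Ifit1 itself rose 304-fold in IFNγ + LPS, from 4.55 ± 0.308 CPM to 1385 ± 147 CPM (SD, n = 3). With DGAT1i it reached 941, 1034 and 969 CPM against 1269.8, 1551 and 1334 CPM without, a log2 fold change of -0.50 (SE 0.06, adjusted p = 5.5e-09), and the ranges did not overlap. Ifit3 was at 881, 965 and 871 CPM in IFNγ + LPS and 593, 613 and 632 CPM with DGAT1i, without overlap and with a log2 fold change of -0.56 (SE 0.06, adjusted p = 4.35e-11). In the resting groups Ifit3 was at 6.10, 3.06 and 4.87 CPM in M0 and 5.31, 5.39 and 7.13 CPM in M0 with DGAT1i, and these ranges overlapped. The difference between both DGAT1i responses was -0.92 (SE 0.19, adjusted p = 0.00035), the largest in size among the called members. Ifit3b, the neighbouring copy of Ifit3, fell from 60.6, 58.7 and 51.3 CPM to 26.8, 23.4 and 22.4 CPM with DGAT1i in IFNγ + LPS, again without overlap and with a log2 fold change of -1.23 (SE 0.11, adjusted p = 2.2e-13). The longest transcripts of Ifit3 and Ifit3b are 97.8% identical over 84.9% of Ifit3b, so the split of reads between both genes is uncertain. Their summed level was 962 ± 53.5 CPM in IFNγ + LPS and 637 ± 17.4 CPM with DGAT1i.

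Ifit2 went the other way. It was at 6158, 6742 and 6344 CPM in IFNγ + LPS and at 6810.5, 7367 and 7426 CPM with DGAT1i, and the highest library without DGAT1i was just below the lowest with it. The log2 fold change was 0.17 (SE 0.06, adjusted p = 0.0195). This call was lost without the filter on low counts and when IFNγ + LPS replicate 1 or 3 or IFNγ + LPS with DGAT1i replicate 2 or 3 was left out (log2 fold change 0.13 to 0.20 over all libraries left out in turn, adjusted p up to 0.123). In M0 none of the 5 IFIT members was called with DGAT1i.

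ISG15 is a ubiquitin-like protein that is attached to other proteins, HERC6 is its ligase in the mouse, and USP18 removes it and also restrains signalling from IFNAR2. Of the 4 genes of this group, 2 fell with DGAT1i in IFNγ + LPS. Usp18 at chr6:121245906-121270917 fell with DGAT1i from 726, 712 and 656 CPM to 418, 445 and 429 CPM in IFNγ + LPS. It also fell from 6.83, 5.99 and 6.68 CPM to 4.12, 3.97 and 3.43 CPM in M0. No library with DGAT1i reached a library without it in either state. The log2 fold changes were -0.70 (SE 0.05, adjusted p = 1.42e-16) in IFNγ + LPS and -0.75 (SE 0.17, adjusted p = 0.000927) in M0, and their difference was not called (0.06, 95% interval -0.28 to 0.40).

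Isg15 at chr4:156199424-156200818, whose promoter holds the 3 overlapping ISRE matches, rose 167-fold with IFNγ + LPS and was at 782, 832 and 813 CPM without and 784, 792 and 822 CPM with DGAT1i. These ranges overlapped, and the log2 fold change was -0.02 with a 95% interval of -0.12 to 0.08. A transcript annotated as AC151275.1 is 95.2% identical to Isg15 over 63.8% of its length, so some reads could have been split between them. Herc6 was lower with DGAT1i in IFNγ + LPS, at 409 ± 3.46 CPM against 506 ± 5.37 CPM (log2 fold change -0.31, SE 0.05, adjusted p = 1.61e-06). Over 26.7% of its longest transcript Herc6 is identical to Gm45193, which overlaps it on the same strand and had 0 reads. The counting of reads from that stretch is therefore uncertain. Trim25, a ligase that adds ubiquitin to the RNA sensor RIG-I, responded to IFNγ + LPS with a log2 fold change of 1.99, below the members' median of 4.09. It rose from 176, 177 and 162 CPM to 664, 681 and 699 CPM with IFNγ + LPS, and from 148, 143 and 143 CPM to 716, 706 and 723 CPM when DGAT1i was present. With DGAT1i all 3 libraries were lower in M0 (-0.25, SE 0.05, adjusted p = 0.000391) and all 3 were narrowly higher in IFNγ + LPS, where the change of 0.07 (95% interval -0.03 to 0.17) was not called. The difference of 0.31 (SE 0.07, adjusted p = 0.00118) between both responses was called.

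Among the 3 genes of nucleotide and RNA metabolism 2 fell with DGAT1i in IFNγ + LPS. Isg20, an RNA exonuclease, had the largest change with DGAT1i. It was at 57.5, 70.6 and 56.0 CPM in IFNγ + LPS and 36.6, 39.4 and 43.2 CPM with DGAT1i, without overlap (log2 fold change -0.63, SE 0.10, adjusted p = 7.56e-07). In M0 it was near 1 CPM in both groups. Rsad2 encodes viperin, which makes a chain-terminating nucleotide from CTP, and Cmpk2 next to it on chromosome 12 encodes a mitochondrial nucleotide kinase. Rsad2 rose 441-fold in IFNγ + LPS, to 4521, 5257 and 5033 CPM, and reached 4339, 4909 and 4865 CPM with DGAT1i. These ranges overlapped, and its log2 fold change with DGAT1i was -0.07 with a 95% interval of -0.22 to 0.08. Cmpk2 was at 1831, 2129 and 1891 CPM and 1399.6, 1596 and 1594 CPM, without overlap and with a log2 fold change of -0.35 (SE 0.11, adjusted p = 0.0368). That call was lost with DESeq2 and when M0 replicate 1, IFNγ + LPS replicate 2 or 3 or any replicate of IFNγ + LPS with DGAT1i was left out (-0.40 to -0.29 over all libraries left out in turn, adjusted p up to 0.136).

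The OAS proteins sense double-stranded RNA and make 2′-5′ oligoadenylates, an activity that OASL1 lacks. Of the 6 members, 2 fell and 1 rose with DGAT1i in IFNγ + LPS. Oas1a at chr5:120896256-120907521 was lower with DGAT1i in both states, at 195, 199 and 203 against 268, 276 and 273 CPM in IFNγ + LPS and at 31.9, 35.8 and 36.2 against 43.3, 46.6 and 48.2 CPM in M0. The groups did not overlap in either state. The log2 fold changes were -0.46 (SE 0.06, adjusted p = 1.51e-09) and -0.41 (SE 0.08, adjusted p = 1.81e-05). Oas1g, which is 97.5% identical to Oas1a over 94.1% of its longest transcript, was at 70.4, 88.9 and 83.8 against 97.7, 107 and 93.7 CPM in IFNγ + LPS, also without overlap, and was not called (-0.30, adjusted p = 0.105). It was called lower without the filter, in a fit of these 2 groups alone, with a replicate block, and without M0 replicate 2 or 3. Summed, both genes were at 372 ± 9.87 CPM in IFNγ + LPS and 280 ± 12.6 CPM with DGAT1i.

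Oas2 was the OAS member with the smallest change. It was at 259.6, 284 and 267 CPM without and 232, 294 and 279 CPM with DGAT1i in IFNγ + LPS, the second group spanned the first, and the log2 fold change was -0.01 (95% interval -0.13 to 0.11). Oas3 was lower in all 3 libraries with DGAT1i, at 729, 812 and 784 against 1014, 1016 and 933 CPM (log2 fold change -0.35, SE 0.05, adjusted p = 7.56e-07). In M0 it was at 43.6, 49.5 and 49.4 CPM with and 51.3, 54.7 and 44.8 CPM without DGAT1i, with overlap, and the difference between both responses was -0.27 (SE 0.09, adjusted p = 0.036). Oasl1, whose product is known to block translation of Irf7 mRNA, was one of the 3 members that rose. It went from 1242, 1267 and 1264 CPM to 1467, 1579 and 1704 CPM with DGAT1i in IFNγ + LPS, without overlap and with a log2 fold change of 0.33 (SE 0.07, adjusted p = 0.000272). IFNγ + LPS raised it 538-fold from 2.31 ± 0.221 CPM in M0. Oasl2 was at 717, 787 and 791 CPM with and 839.7, 893 and 840.2 CPM without DGAT1i, without overlap, and was not called (-0.17, adjusted p = 0.161), although it was without the filter, in a fit of these 2 groups alone and without M0 with DGAT1i replicate 1.

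Both genes of the MX family of dynamin-like GTPases were lower with DGAT1i in both states. Only RNA was measured, so the function of their proteins in these cells was not tested. Mx2 at chr16:97535308-97560900 fell from 194, 194 and 193 CPM to 107, 122 and 109 CPM in IFNγ + LPS and from 4.79, 3.86 and 4.04 CPM to 1.73, 1.56 and 2.38 CPM in M0. The libraries with DGAT1i were all below those without. The log2 fold changes were -0.78 (SE 0.06, adjusted p = 5.63e-15) and -1.15 (SE 0.24, adjusted p = 0.000164), the second being the largest decrease called among the members in M0. Mx1 at chr16:97447035-97462907 rose 313-fold with IFNγ + LPS, to 2569, 2626 and 2579 CPM, and reached 1716, 1925 and 1877 CPM with DGAT1i. It was at 8.72, 8.66 and 7.38 CPM in M0 and 4.52, 4.12 and 5.67 CPM in M0 with DGAT1i, and neither pair of groups overlapped. Its log2 fold changes with DGAT1i were -0.49 (SE 0.05, adjusted p = 2.34e-11) in IFNγ + LPS and -0.78 (SE 0.15, adjusted p = 8.13e-05) in M0. The differences between both responses were not called for Mx1 (0.29, 95% interval -0.03 to 0.61) or Mx2 (0.37, 95% interval -0.13 to 0.87). A stretch of 34.0% of the longest Mx2 transcript is at least 95% identical to Mx1, so reads could have moved between the pair.

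Of the 3 RNA-binding sensors and kinases 2 fell with DGAT1i in IFNγ + LPS. Ddx60, a helicase reported to act with RIG-I-like receptors, was at 290.4, 325 and 305 CPM in IFNγ + LPS and 235, 241 and 244 CPM with DGAT1i. The groups did not overlap, and the log2 fold change was -0.36 (SE 0.05, adjusted p = 4.82e-07). In M0 Ddx60 was at 18.02, 17.6 and 15.6 CPM and with DGAT1i at 17.9, 18.3 and 17.3 CPM, with overlap, and the difference between the responses was -0.42 (SE 0.12, adjusted p = 0.00609). Znfx1, a helicase that binds viral RNA at mitochondria, was at 1460.4, 1589.8 and 1509.7 CPM in IFNγ + LPS and 1268, 1333 and 1351 CPM with DGAT1i, without overlap (log2 fold change -0.21, SE 0.05, adjusted p = 0.00127). Its resting levels overlapped, at 238 ± 9.32 CPM and 238 ± 13.4 CPM with DGAT1i, and the difference between the responses was -0.20 (SE 0.07, adjusted p = 0.0476). Eif2ak2 encodes PKR, the kinase that halts translation when it binds double-stranded RNA. It was at 263, 253 and 263 CPM in IFNγ + LPS and 243, 237 and 236 CPM with DGAT1i, and although these ranges did not overlap the change of -0.12 was not called (adjusted p = 0.0939). In M0 it was at 68.4, 81.1 and 78.7 CPM and with DGAT1i at 68.9, 67.1 and 60.8 CPM, with a slight overlap. That change of -0.21 (SE 0.07, adjusted p = 0.0123) was called, and the call was lost when M0 replicate 2 or 3 or M0 with DGAT1i replicate 3 was left out (-0.28 to -0.16 over all libraries left out in turn).

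PARP9, PARP12 and PARP14 belong to the family of ADP-ribosyltransferases, and DTX3L is the ubiquitin ligase partner of PARP9. With DGAT1i in IFNγ + LPS 3 of these 4 genes fell. Parp9 at chr16:35938470-35972605 was at 383, 388 and 391 CPM in IFNγ + LPS and 270.5, 271 and 297 CPM with DGAT1i, without overlap (log2 fold change -0.47, SE 0.05, adjusted p = 7.97e-11). In M0 it was at 43.6, 42.3 and 45.4 CPM and 37.5, 37.8 and 38.1 CPM, again lower with DGAT1i in every library (-0.21, SE 0.07, adjusted p = 0.0266). That resting call was lost without the filter on low counts and when M0 replicate 1 or 3 or any replicate of M0 with DGAT1i was left out (-0.24 to -0.19 over all libraries left out in turn). Parp9 overlaps Dtx3l on the opposite strand by 458 exon bases, and reads of the pair cannot be told apart there if strand was not used in counting. Dtx3l was lower with DGAT1i in IFNγ + LPS as well, at 573 ± 23.8 CPM against 653 ± 31.1 CPM (-0.19, SE 0.05, adjusted p = 0.00307). Parp12 was at 394, 419.5 and 432 against 449, 471 and 462 CPM (-0.15, SE 0.05, adjusted p = 0.0214), a call lost in a fit of these 2 groups alone and when IFNγ + LPS replicate 2 or IFNγ + LPS with DGAT1i replicate 1 was left out (-0.18 to -0.12 over all libraries left out in turn). Parp14, the most abundant of these 4 genes per length at 316 ± 6.42 CPM per kb in IFNγ + LPS, was at 2999.8, 2928 and 2881 CPM without and 2941, 2871 and 2840.4 CPM with DGAT1i. These ranges overlapped, and its log2 fold change was -0.03 with a 95% interval of -0.13 to 0.07.

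The TRIM, PHF11 and nuclear body genes gave 3 decreases among 4 members in IFNγ + LPS with DGAT1i. Phf11b, a PHD finger gene of chromosome 14, was at 285, 322 and 318 CPM in IFNγ + LPS and 225, 226 and 241 CPM with DGAT1i. In M0 it was at 5.81, 5.99 and 5.29 CPM and with DGAT1i at 2.39, 2.84 and 3.70 CPM. Both pairs of groups were apart, with log2 fold changes of -0.42 (SE 0.06, adjusted p = 2.25e-08) and -0.93 (SE 0.20, adjusted p = 0.00023). Reads of Phf11b are uncertain too, since 73.0% of its longest transcript is at least 95% identical to Phf11a. Sp100, a nuclear body protein that represses incoming viral DNA, showed a change in M0, from 49.3, 49.8 and 49.8 CPM to 38.4, 39.0 and 36.3 CPM with DGAT1i (-0.39, SE 0.08, adjusted p = 9.42e-05). In IFNγ + LPS it was at 269.9, 299 and 272 CPM without and 239, 286 and 249 CPM with DGAT1i, with overlap (-0.12, adjusted p = 0.118, called without IFNγ + LPS with DGAT1i replicate 2), and the difference of 0.27 (SE 0.10, adjusted p = 0.0417) was called. Trim30a, a ligase that restrains NF-κB signalling, was lower with DGAT1i in IFNγ + LPS (log2 fold change -0.17, SE 0.05, adjusted p = 0.00515) and in M0 (-0.22, SE 0.06, adjusted p = 0.00556). Phf11d was lower in IFNγ + LPS, at 298 ± 16.5 CPM against 356 ± 20.3 CPM (-0.26, SE 0.06, adjusted p = 0.000187), and was not called in M0.

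Of the 3 membrane and cytosolic restriction factors, 1 fell with DGAT1i in IFNγ + LPS. Samd9l, which blocks translation in infected cells, was at 701, 824 and 735 CPM without and 638, 663 and 636 CPM with DGAT1i, without overlap (-0.22, SE 0.05, adjusted p = 0.00122). Bst2 was at 778, 793 and 812 CPM and 792, 751 and 779 CPM, with overlap, and its log2 fold change was -0.04 with a 95% interval of -0.14 to 0.06. Ifitm3 was at 994, 956 and 899 CPM and 875, 855 and 888 CPM, narrowly without overlap, and was not called in IFNγ + LPS (-0.12, adjusted p = 0.23), except without the filter. In M0 Ifitm3 fell from 161, 189 and 141 CPM to 112, 132 and 122 CPM (-0.43, SE 0.08, adjusted p = 0.000415).

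The 8 other interferon-induced genes were lower with DGAT1i in IFNγ + LPS for 7 members and higher for 1. This was Ifi27, which encodes a small mitochondrial and nuclear membrane protein and was also the only member that IFNγ + LPS lowered. It fell from 72.5, 68.2 and 73.4 CPM in M0 to 15.6, 14.9 and 11.4 CPM in IFNγ + LPS, a log2 fold change of -2.35 (SE 0.10, adjusted p = 6.94e-28), and from 93.9, 82.3 and 92.1 to 22.8, 17.1 and 18.2 CPM with DGAT1i. DGAT1i raised it in both states, by 0.33 (SE 0.07, adjusted p = 0.000347) in M0 and 0.48 (SE 0.14, adjusted p = 0.00616) in IFNγ + LPS on the log2 scale, and the groups overlapped in neither state. The second call was lost when IFNγ + LPS replicate 3 or IFNγ + LPS with DGAT1i replicate 1 was left out (0.34 to 0.56 over all libraries left out in turn). Ifi44 was nearly absent at rest, with 19 reads over the M0 libraries and 5128 over the IFNγ + LPS libraries, a ratio of 372 (95% counting interval 238 to 619). It was at 317, 355 and 309 CPM in IFNγ + LPS and 217, 246 and 229.8 CPM with DGAT1i, without overlap (-0.50, SE 0.06, adjusted p = 9.35e-10).

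Lgals3bp, a secreted glycoprotein, was at 1202, 1215 and 1027 CPM in IFNγ + LPS and 864, 905 and 897 CPM with DGAT1i (-0.37, SE 0.05, adjusted p = 2.38e-07), and the difference to its response in M0 was -0.22 (SE 0.08, adjusted p = 0.0398). Ifi35, an adaptor of innate signalling, had the smallest change of this group, 168, 172 and 166 CPM against 139, 150.2 and 148 CPM (-0.21, SE 0.06, adjusted p = 0.00609), still without overlap. Rtp4, Xaf1, Epsti1 and Tor3a were lower with DGAT1i in IFNγ + LPS as well, with log2 fold changes of -0.31, -0.34, -0.32 and -0.21. Of these 4, Rtp4 (-0.31, SE 0.08, adjusted p = 0.00275) and Epsti1 (-0.30, SE 0.10, adjusted p = 0.0161) were also lower in M0. The resting call of Rtp4 was lost without M0 replicate 1 and that of Epsti1 without M0 replicate 1 or M0 with DGAT1i replicate 1 or 2 (-0.38 to -0.22 and -0.39 to -0.22 over all libraries left out in turn).

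**Figure D4:**
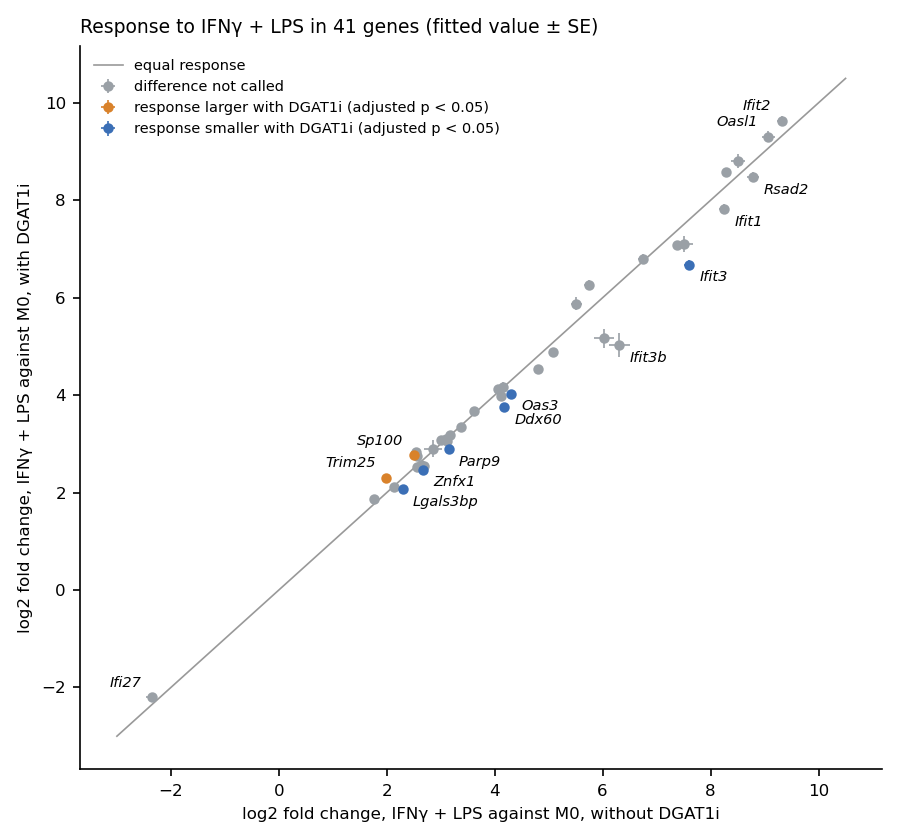
Log2 fold change to IFNγ + LPS without DGAT1i (x axis) and with DGAT1i (y axis) for 41 members, each ± SE, with the line of equal response. Ifit1bl1 is left out because it had no reads in M0 with DGAT1i. The 6 genes in blue, Ifit3 among them, lie below the line and the 2 in orange, Trim25 and Sp100, above it.

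The 8 called differences were not equally firm. Those of Ifit3, Ddx60 and Trim25 were kept under every alternative run and with each of the 12 libraries left out, with log2 values of -1.16 to -0.69, -0.46 to -0.36 and 0.29 to 0.35 over the libraries left out. The other 5 were lost with DESeq2 and when single libraries were left out, Oas3, Lgals3bp and Znfx1 also with RLE scaling and with library size alone, Parp9 with library size alone and Sp100 without the filter. Oas3 was kept when M0 replicate 2, IFNγ + LPS replicate 3, M0 with DGAT1i replicate 1 or IFNγ + LPS with DGAT1i replicate 2 or 3 was left out and lost without any of the other 7 (-0.34 to -0.19). Parp9 was kept without M0 replicate 3, IFNγ + LPS replicate 1 or 2 or IFNγ + LPS with DGAT1i replicate 3 and lost without any of the other 8 (-0.31 to -0.24). Lgals3bp was kept without M0 replicate 3, IFNγ + LPS replicate 3, M0 with DGAT1i replicate 1 or IFNγ + LPS with DGAT1i replicate 2 (-0.30 to -0.19), and Znfx1 without M0 replicate 1, IFNγ + LPS replicate 1, M0 with DGAT1i replicate 2 or IFNγ + LPS with DGAT1i replicate 3 (-0.25 to -0.16). Sp100 was kept without IFNγ + LPS replicate 2 or IFNγ + LPS with DGAT1i replicate 1 or 3 (0.18 to 0.32).

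The genes of the type I interferon pathway itself were then examined, 28 in all. Of the 14 ligand genes, Ifnb1 had 7, 9 and 3 reads in the IFNγ + LPS libraries and 0, 2 and 2 with DGAT1i, and none in the resting groups. The ratio of reads at equal library size was 4.23 with a 95% counting interval of 1.41 to 17.1, which covers counting error alone. Ifna4 had 1 read in all, and the other 12 ligand genes had none. The remaining 14 genes passed the filter, and IFNγ + LPS raised 12 of them, beside 37.1% of all genes, among them both receptor genes, whose log2 fold changes turned negative with library size alone (Ifnar1 from 0.29 to -0.17 and Ifnar2 from 0.46 to -0.01). DGAT1i in IFNγ + LPS lowered 6 of them and raised 1, beside 16.3% and 13.5% of all genes.

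**Figure D5:**
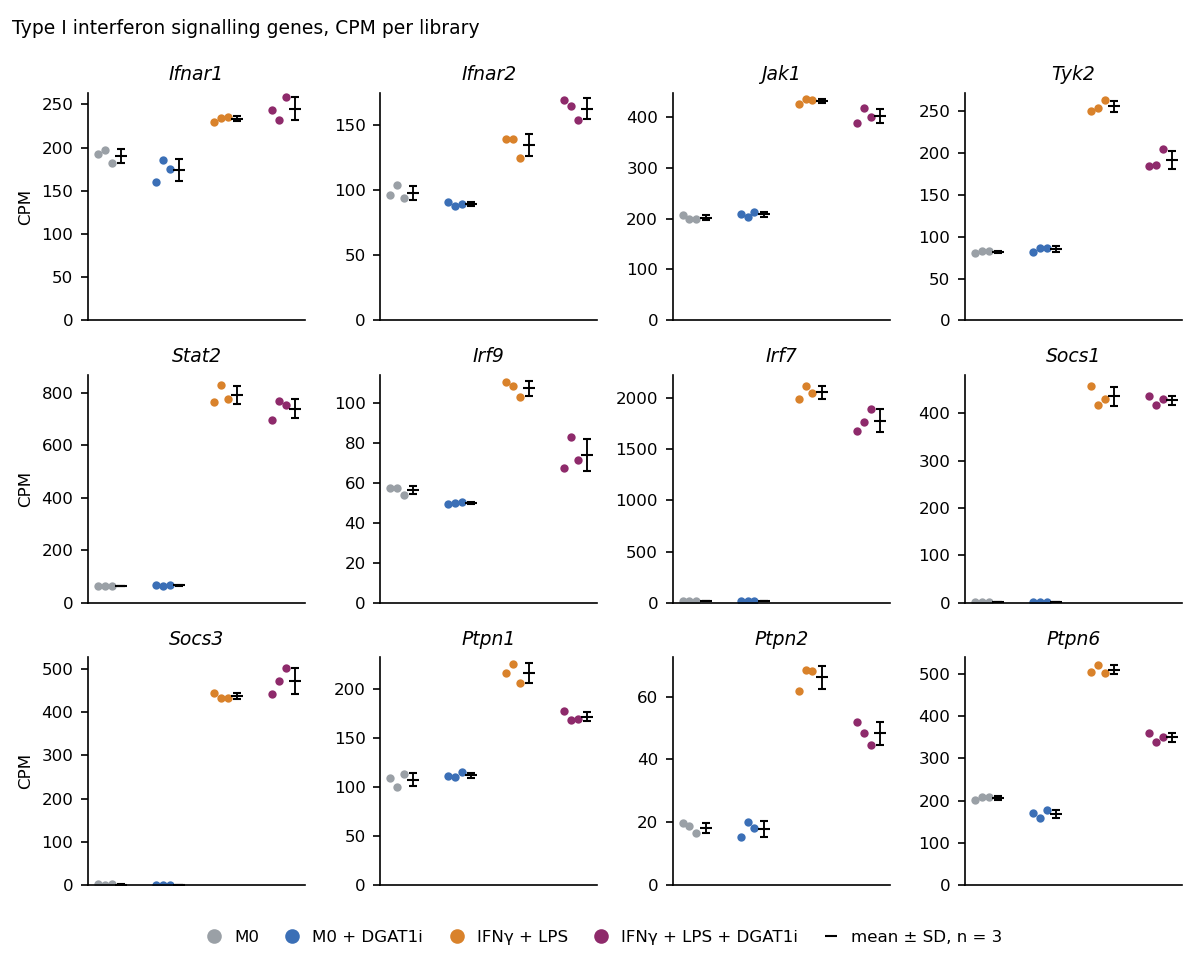
CPM per library of 12 genes of type I interferon signalling in the 4 groups, with the mean ± SD of 3 libraries beside the points. Tyk2, Irf9, Irf7, Ptpn1, Ptpn2 and Ptpn6 are lower in all 3 libraries of IFNγ + LPS with DGAT1i than in the 3 without, and Ifnar2 is higher.

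Of the receptor genes, Ifnar2 rose with DGAT1i in IFNγ + LPS, from 139, 139 and 125 CPM to 169, 165 and 153 CPM (0.28, SE 0.06, adjusted p = 0.000362), and the difference to its response in M0 was 0.40 (SE 0.09, adjusted p = 0.000459). Ifnar1 was at 229.9, 235 and 235 CPM and 244, 232 and 259 CPM, with overlap (0.07, adjusted p = 0.408), and whether its response differed from that of Ifnar2 was not tested. The kinase Tyk2 fell from 250.3, 253 and 263 CPM to 185, 186 and 205 CPM (-0.42, SE 0.06, adjusted p = 1.89e-08), with a difference to M0 of -0.47 (SE 0.08, adjusted p = 1.98e-05). Within ISGF3, Irf9 was at 110.1, 108 and 103 CPM without and 67.5, 82.8 and 71.2 CPM with DGAT1i (-0.53, SE 0.07, adjusted p = 2.8e-08), and Stat2 at 765, 829 and 775 and 698, 768 and 753 CPM. Irf9 was lower without overlap, while the ranges of Stat2 overlapped (-0.10, 95% interval -0.20 to 0.01). The difference between the DGAT1i responses of Irf9 was -0.36 (SE 0.10, adjusted p = 0.00879), a call lost with DESeq2 (-0.46 to -0.30 over all alternatives). Irf7, the factor that amplifies interferon production, rose 118-fold with IFNγ + LPS, to 1997, 2123 and 2052 CPM, and was at 1679.9, 1765 and 1898 CPM with DGAT1i (-0.21, SE 0.05, adjusted p = 0.00136). Irf3, which is activated by phosphorylation, was at 40.5 ± 3.72 CPM and 41.3 ± 2.78 CPM and was not called in any comparison, except as lower with IFNγ + LPS when library size alone was used (-0.55).

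Among the inhibitors of the pathway, the phosphatase genes Ptpn1, Ptpn2 and Ptpn6 were lower with DGAT1i in IFNγ + LPS (-0.33, SE 0.06, adjusted p = 7.33e-06, -0.45 (SE 0.09, adjusted p = 7.38e-05) and -0.54 (SE 0.05, adjusted p = 1.25e-12) on the log2 scale). Ptpn6, which encodes SHP-1, was also lower in M0 (-0.29, SE 0.05, adjusted p = 1.98e-05). The differences between both responses were -0.39, -0.41 and -0.25, all called. The difference of Ptpn6 was no longer called when library size alone was used for scaling or M0 with DGAT1i replicate 3 was left out (-0.29 to -0.20 over all alternatives). That of Ptpn2 was lost with RLE scaling, library size alone and DESeq2, and it was kept only without M0 replicate 1, IFNγ + LPS replicate 1, M0 with DGAT1i replicate 1 or IFNγ + LPS with DGAT1i replicate 1 among the libraries left out (-0.52 to -0.32). Socs1, the feedback inhibitor of JAK kinases, was at 458, 419 and 429.7 CPM in IFNγ + LPS and 436, 417 and 429 CPM with DGAT1i, with overlap (-0.03, 95% interval -0.13 to 0.07). Socs3 was at 444, 434 and 432 CPM and 441, 472 and 502 CPM and was not called there, except without IFNγ + LPS with DGAT1i replicate 1 (0.06 to 0.16 over all alternatives). In M0 Socs3 had 21 reads without and 7 with DGAT1i, a ratio of 3.08 (95% counting interval 1.26 to 8.58), and both this call (-1.56, SE 0.55, adjusted p = 0.0303, lost also with DESeq2) and that of the difference (1.67, SE 0.55, adjusted p = 0.0259) were lost without M0 replicate 1 or 3 or M0 with DGAT1i replicate 1 (-2.13 to -0.99 and 1.10 to 2.24 over all alternatives). Pias1 was at 56.1 ± 2.62 CPM and 54.5 ± 5.45 CPM and was not called with DGAT1i in either state, except in M0 with library size alone, without M0 replicate 2 or without M0 with DGAT1i replicate 3 (-0.31 to -0.09 over all alternatives).

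The families of the members hold further genes, 40 of which were examined, and 30 of these passed the filter. DGAT1i in IFNγ + LPS lowered 9 and raised 3 of them, beside 16.3% and 13.5% of all genes, with a median log2 fold change of -0.06. Of the 3 TRIM30 relatives 2 fell, and of the 2 PHF11 relatives 1 fell: Trim30b (-0.73, SE 0.06, adjusted p = 5.01e-14), Trim30c (-0.58, SE 0.06, adjusted p = 2.21e-12) and Phf11a (-0.72, SE 0.08, adjusted p = 6.11e-11), while Trim30d (-0.13) and Phf11c (-0.29) were not called. Trim30d was called lower with library size alone, without the filter and without replicate 3 of M0, of IFNγ + LPS or of IFNγ + LPS with DGAT1i (-0.17 to -0.11 over all alternatives). Of the relatives of Sp100, itself not called, Sp110 fell (-0.48, SE 0.06, adjusted p = 1.2e-08) and Sp140 (-0.13) was not called, except without the filter. Trim30b was at 184, 187 and 169 CPM without and 107, 109.5 and 109 CPM with DGAT1i. Uba7 and Ube2l6, which activate and carry ISG15 for conjugation, were lower too (-0.37, SE 0.05, adjusted p = 7.34e-08 and -0.50 (SE 0.07, adjusted p = 3.04e-08)). Arih1, a ligase listed with them under ISG15 conjugation, was slightly higher (0.16, SE 0.06, adjusted p = 0.0262). The call of Arih1 was lost with DESeq2, without the filter and without IFNγ + LPS replicate 1 or 3 or IFNγ + LPS with DGAT1i replicate 1 or 2 (0.12 to 0.18). Parp8 (-0.35, SE 0.07, adjusted p = 0.000127) and Parp11 (-0.45, SE 0.06, adjusted p = 1.45e-08) fell, while Parp3 (0.25, SE 0.06, adjusted p = 0.000592) and Parp16 (1.32, SE 0.36, adjusted p = 0.00358) rose. Ifit1bl2 was at most 6.56 CPM in any library, with a log2 fold change of -0.71 (SE 0.28, adjusted p = 0.044) that was lost without the filter, with DESeq2, with a replicate block and without any single library of both stimulated groups (-0.78 to -0.63).

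In M0, DGAT1i lowered 5 of the 30 relatives and raised 2, beside 13.4% and 11.0% of all genes. Parp1, Parp8, Phf11a, Ifi27l2a and Ube2l6 were the 5 that fell. Ifi27l2a had a log2 fold change of -0.91 (SE 0.14, adjusted p = 0.00126), from 166, 188 and 169.6 CPM to 78.1, 93.7 and 107 CPM. In IFNγ + LPS it was at 254, 287 and 327 CPM without and 268, 266 and 325 CPM with DGAT1i, with overlap. Its difference between the responses was 0.89 (SE 0.19, adjusted p = 0.0119). Phf11a had a log2 fold change of -1.51 (SE 0.54, adjusted p = 0.0343) in M0, a call lost with DESeq2 and without M0 replicate 1 or 2 or M0 with DGAT1i replicate 1 or 2 (-1.89 to -1.07).

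A list of 18 genes known as IFNγ targets was set beside the members. IFNγ + LPS raised all 18, beside 37.1% of all genes. DGAT1i in IFNγ + LPS lowered 9 and raised 3 of them, beside 16.3% and 13.5% of all genes, with a median log2 fold change of -0.18 (members -0.28). Whether both lists differ was not tested. Ido1 (log2 fold change -3.06, SE 0.60, adjusted p = 7.86e-05) and Gbp4 (-1.15, SE 0.05, adjusted p = 3.26e-24) had the largest decreases, the value of Ido1 running from -4.68 to -2.48 over all alternatives. The decreases of Cd74 (-0.29, lost without IFNγ + LPS replicate 1 or 3), H2-Aa (-0.22, lost without IFNγ + LPS replicate 3 or IFNγ + LPS with DGAT1i replicate 2) and H2-Eb1 (-0.27, lost without IFNγ + LPS with DGAT1i replicate 2) were the calls lost among the 9, with values of -0.36 to -0.19, -0.27 to -0.15 and -0.33 to -0.21 over all alternatives. Of the 3 that rose, Nos2 (0.23, SE 0.05, adjusted p = 0.000713) kept its call under every alternative. The call of Iigp1 (0.15) was lost without the filter and without IFNγ + LPS replicate 1 or IFNγ + LPS with DGAT1i replicate 1 (0.11 to 0.17), and that of Cd274 (0.20) without IFNγ + LPS replicate 1 or 3 or IFNγ + LPS with DGAT1i replicate 2 (0.12 to 0.27).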

How the data were processed

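RNA was sequenced from 12 macrophage libraries, 3 in each of 4 groups taken from the sample labels. The authors deposited 1 table of raw read counts per gene, not normalised, with whole numbers for 47937 versioned gene identifiers. The submitters' processing notes name GRCm38 and DESeq2. For the aligner, the counting tool, the annotation and the use of strand in counting, the answer is "not given in the sources used here", so overlapping and near-identical genes may share reads. Identifiers were matched to symbols with the version dropped (47224 matched, 713 did not), and 25746 genes without any read were left out. Counts were filtered with filterByExpr (11760 genes kept), scaled by TMM and fitted with edgeR 4.0.16 in R 4.3.3 (glmQLFit with robust estimation, glmQLFTest), with 1 mean per group over all 12 libraries and no covariate. Benjamini-Hochberg adjustment ran over all genes tested, and a call means an adjusted p under 0.05. A standard error is the absolute log2 fold change divided by the square root of F, and intervals are at the 95% level. The fit was tested on simulated counts with known changes. Counting intervals and the floor of 3 reads cover counting error only.

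The 42 members, the further gene lists and the tests were chosen with earlier results of these data known. Values of single libraries were named by a rule: in each role the members with the largest and the smallest change by DGAT1i in IFNγ + LPS and every member called for the difference between both DGAT1i responses, then signalling genes and called relatives. Further genes were named after their values were seen where a count or a call turned on them. CPM per kb used the union of exon bases in the GENCODE annotation of GRCm38. Similar transcripts were found with BLAST 2.17.0 (at least 95% identity over at least 20% of the transcript). Promoter windows came from RefSeq on GRCm38.p6 and were matched by symbol. Alternatives were RLE scaling, library size alone, no filter, a mean CPM of 1 as the filter, DESeq2 1.42.0, only the libraries compared, a replicate block, and leaving out the libraries one by one. Comparisons share groups and are not independent of each other. Some genes of these pathways are not reported here and are left out of the list counts.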

Additional observations from a re-analysis of the deposited data

Results flagged for a closer look

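The effect of DGAT1i in IFNγ + LPS and its effect in M0 differed for 8 members by the test of the difference itself (edgeR's quasi-likelihood test, Benjamini-Hochberg adjusted, 3 libraries a group). On the log2 scale the effect in IFNγ + LPS minus that in M0 was -0.9236 for Ifit3, -0.4206 for Ddx60, -0.2667 for Oas3, -0.2606 for Parp9, -0.2243 for Lgals3bp and -0.2042 for Znfx1. It was 0.3145 for Trim25 and 0.2716 for Sp100, which DGAT1i lowered in M0 and did not detectably change in IFNγ + LPS. Over all genes 8.66% were called higher and 9.80% lower for this difference, so 8 of 42 members is close to that background.

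Among the signalling genes the difference was 0.4047 for Ifnar2, -0.4702 for Tyk2, -0.3622 for Irf9, 1.6733 for Socs3, -0.3885 for Ptpn1, -0.4106 for Ptpn2 and -0.2484 for Ptpn6. The value of Socs3 rests on 21 and 7 reads in the resting groups.

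Among the relatives it was 0.8898 for Ifi27l2a, -0.3632 for Sp110 and -0.3467 for Uba7. The call of Sp110 was lost with DESeq2 and when IFNγ + LPS replicate 2, IFNγ + LPS with DGAT1i replicate 1 or M0 with DGAT1i replicate 1 or 2 was left out (-0.46 to -0.29 over all alternatives).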

How the results depend on the processing

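Both responses to IFNγ + LPS kept direction and call for all 42 members under every alternative run. Scaling by library size alone gave 2340 genes higher and 7002 lower in IFNγ + LPS without DGAT1i, 2333 and 6799 with it, 21 members lower with DGAT1i in M0 (17.8% of all genes lower and 7.53% higher) and 2 members lower for the difference between both DGAT1i responses (882 of all genes lower and 1229 higher). That last count was 3 with RLE scaling and 2 with DESeq2, beside 1045 and 741 of all genes. DESeq2 called 741 genes higher with DGAT1i in M0 and also 741 lower for the difference. Over the libraries left out in turn, 1 to 3 members were higher with DGAT1i in IFNγ + LPS (1 without IFNγ + LPS replicate 3), 1 to 2 were higher in M0, and 1 to 3 members were higher and 2 to 5 lower for the difference. The members lower with DGAT1i numbered 26 to 29 in IFNγ + LPS and 10 to 14 in M0. In the same fits 10.9% to 13.4% of all genes were higher and 13.4% to 16.5% lower in IFNγ + LPS, 8.35% to 11.5% and 10.7% to 13.7% in M0, and 7.27% to 8.23% and 8.41% to 9.84% for the difference. Of 798 alternative values of DGAT1i in IFNγ + LPS, 767 kept direction and call, 17 lost the call, 10 gained one and 4 changed sign, none of these 4 called: Isg15 (0.0018) and Oas2 (0.0072) in a fit of the libraries compared, and Oas2 over the libraries left out (-0.0901 to 0.0818, positive without IFNγ + LPS replicate 2 or IFNγ + LPS with DGAT1i replicate 1). The replicate block gave 29 members lower and 3 higher with DGAT1i in IFNγ + LPS, 15 lower and 1 higher in M0, and 6 lower and 3 higher for the difference, beside 16.5% and 13.8%, 13.7% and 11.4%, and 10.3% and 9.01% of all genes. Whether the replicate numbers pair libraries was not settled. Of 18 same-number correlations 0 passed 0.1 (-0.02 to 0.07), while 9 of 12 libraries correlated best with their own number. That is a hint from the data and not the design. Ifnb1 and resting Ifit1bl1, Ifit3b, Ifi44 and Socs3 rest on few reads, which limits their ratios.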
